A study of Homo sapiens with 15 samples.

Results

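The H/ACA box small nucleolar RNAs and the small Cajal body RNAs were taken as all genes whose symbol begins with SNORA or SCARNA, and 77 of the 18417 genes measured met this rule. They comprised 61 SNORA and 16 SCARNA genes. No measured value entered the choice. Of the SCARNA genes, 8 carry an H/ACA box alone, while SCARNA5, SCARNA6, SCARNA10 and SCARNA12 carry C/D and H/ACA boxes together and SCARNA7, SCARNA9 and SCARNA17 are C/D box RNAs. SCARNA9L, a gene resembling SCARNA9, was placed with these. All 77 matched a RefSeq gene (GRCh38.p14), with annotated RNA lengths of 123 to 236 nucleotides for SNORA genes and 125 to 421 for SCARNA genes. Each lay within the span of at least 1 other gene.

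RNA was hybridised to Affymetrix whole-transcript gene arrays, 15 in all, in 5 groups of 3. HUVEC, human umbilical vein endothelial cells, were left untreated, kept for 6 h with exosomes of Jurkat T cells (written JK), or kept for 6 h with exosomes of JinB8 (JINB8). Jurkat is a human T cell leukaemia line with CD47 on its surface, and JinB8 is a Jurkat mutant that lacks CD47, a receptor for thrombospondin-1. The other groups were the RNA of JK exosomes and the RNA of JINB8 exosomes, vesicles precipitated with a commercial reagent from medium of T cells grown with human serum. The JINB8 groups rest on 1 mutant line, with no line in which CD47 was restored, and no label states that the replicates came from different cultures. The p-values therefore measure only how far these arrays scatter, and that scatter may be technical. Untreated HUVEC received no exosomes, so the effect of CD47 is read from JINB8 against JK.

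H/ACA box RNAs fold into hairpins joined by a hinge and guide dyskerin (DKC1) to uridines that it converts to pseudouridine. SNORA RNAs work in the nucleolus, mostly on ribosomal RNA. Small Cajal body RNAs direct modification of the spliceosomal small nuclear RNAs in Cajal bodies, nuclear structures built on coilin. In vertebrates most of these guides are cut from introns of host genes, many of which encode proteins of translation or are themselves spliced RNAs with little coding content. In bulk RNA, a change in the number of cells that carry an RNA and a change in its amount per cell cannot be told apart.

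The deposited log2 values put the untreated arrays on a level of their own. Array medians averaged 6.97 ± 0.06 (SD, n = 3) for untreated HUVEC. They averaged 5.14 ± 0.03 after JK and 5.11 ± 0.02 after JINB8 exosomes, 5.11 ± 0.03 for the RNA of JK exosomes and 5.12 ± 0.01 for that of JINB8 exosomes. The SD across probesets was 2.20 to 2.21 in the HUVEC groups and 1.52 and 1.55 in the exosome groups. The 12 measured endothelial markers averaged 10.88 over the untreated arrays, 9.36 to 9.67 on the treated ones and 5.21 to 5.36 in exosome RNA. Of the 13 measured T cell markers, 13 were higher in exosome RNA than in treated HUVEC with either exosome. So were 7 of 8 blood and serum markers, where 43.6% (JK) and 44.2% (JINB8) of all genes were. Untreated HUVEC, on their raised level, averaged 5.93 for the T cell list, above JK exosomes (5.70) and JINB8 exosomes (5.82). For the blood and serum list they averaged 5.96, again above JK exosomes (5.35) and JINB8 exosomes (5.33). Whether the vesicles held T cell RNA was not tested by these counts. The CD47 probeset gave 4.72, 4.69 and 4.72 in JK and 4.58, 4.67 and 4.94 in JINB8 exosome RNA, so it did not separate the lines (log2 difference 0.02 ± 0.09 SE, limma adjusted p = 0.988). The exosome groups are therefore named by their labels alone. What sets the untreated level apart was not tested. In comparisons with untreated HUVEC it cannot be told apart from an effect of the exosomes.

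The treated cells were compared with untreated HUVEC, and here the scale decides the direction. On the deposited values 74 of the 77 RNAs were lower with JK exosomes than without and 1 was higher, but the median of all genes was itself 1.68 lower. The comparisons with untreated cells were therefore made on values quantile-normalized over the 9 HUVEC arrays, which gives a change relative to the other genes. On that scale 35 RNAs were higher with JK exosomes and 4 were lower (limma, Benjamini-Hochberg adjusted p under 0.05 over 18417 genes). Among all genes 26.2% were called higher and 22.4% lower, 48.6% in all, against 45.5% and 5.2% of these RNAs. Treated and untreated arrays did not overlap for 34 RNAs that were higher and 5 that were lower, where 30.2% and 25.9% of all genes did not. Their median log2 fold change was 0.31, beside 0.02 for all genes, and with array medians aligned it was 0.33 beside 0.10. The C/D box SNORD genes, the other large class of nucleolar guides, had a median of 0.33, with 55 of 115 higher and 7 lower, and a median of 0.71 with array medians aligned.

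With JINB8 exosomes 29 RNAs were higher and 8 lower, where 26% and 23.3% of all genes were called higher and lower, 49.3% in all. The arrays did not overlap for 30 higher and 9 lower, beside 30.5% and 27.1% of all genes. Their median was 0.21, beside 0.02 for all genes and 0.19 for the SNORD genes. With array medians aligned the medians were 0.31 for the RNAs, 0.13 for all genes and 0.72 for the SNORD genes. On deposited values 1 was higher and 76 lower, with a median of -1.53 beside -1.70 for all genes. Both comparisons use the same 3 untreated arrays, so likeness between them is not independent. Only SNORA14A was called higher on the quantile, the deposited and the median-aligned scales in both comparisons. SNORA70F was called lower with JK exosomes on these 3 scales, and SNORA24, SNORA41, SNORA62 and SNORA70B with JINB8 exosomes. On deposited values nearly all of the RNAs were called lower, so that scale adds little to a lower call and is hard to pass upward. Agreement over the 3 scales therefore does not weigh alike for higher and lower calls.

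**Figure D1:**
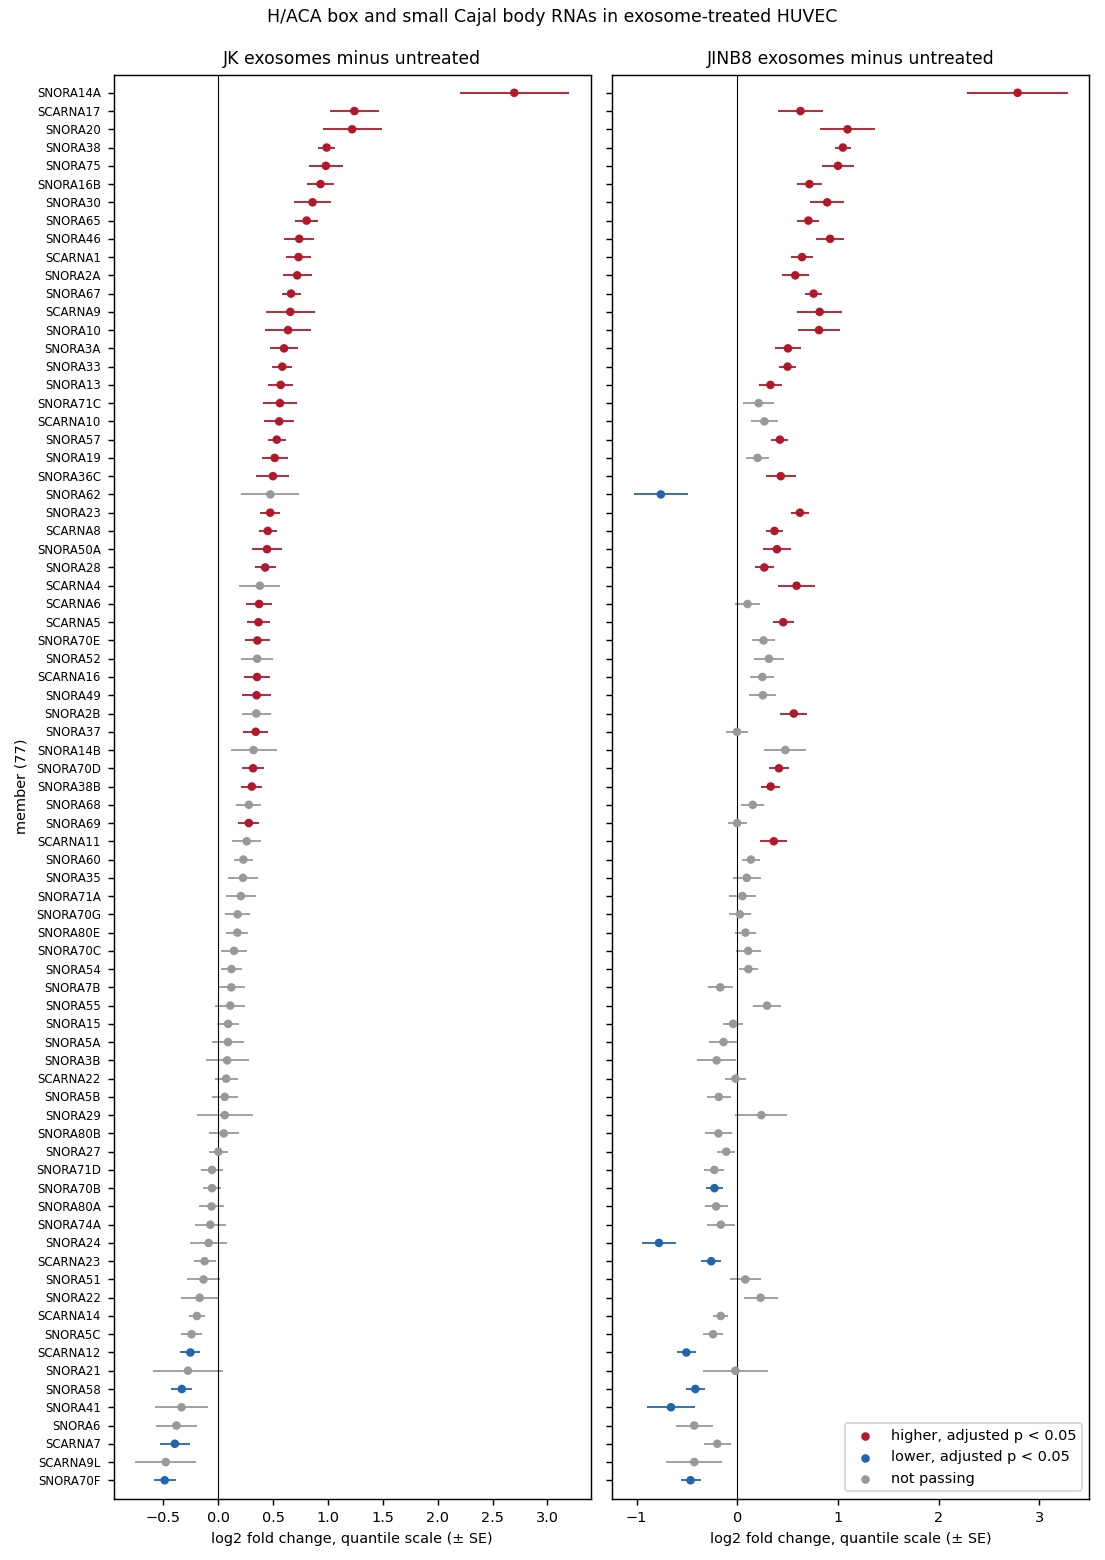
Log2 fold changes (x axis, ± SE) of the 77 RNAs (rows, ordered by the JK comparison) against untreated HUVEC on the quantile scale, with JK exosomes at left and JINB8 exosomes at right. Red and blue points passed an adjusted p of 0.05 upward (35 and 29) or downward (4 and 8), and SNORA14A lies far to the right of the other RNAs in both panels.

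SNORA14A, a guide for small-subunit ribosomal RNA, had quantile-scale levels of 5.54, 7.63 and 4.96 in untreated HUVEC, 8.88, 8.56 and 8.78 with JK exosomes and 8.90, 8.99 and 8.60 with JINB8 exosomes. Every treated array lay above every untreated array, but untreated replicate 2 stood well above the other untreated arrays. The log2 fold change was 2.70 ± 0.50 (SE) with JK exosomes (limma adjusted p = 0.000991) and 2.78 ± 0.50 with JINB8 exosomes (limma adjusted p = 0.000771). The SE pools the spread of the 3 HUVEC groups, whose SDs were 1.41 untreated, 0.16 with JK and 0.20 with JINB8 exosomes. SE and p-value therefore understate the scatter of the untreated arrays. On deposited values the untreated arrays gave 6.77, 8.67 and 6.34, and replicate 2 was then above all treated arrays, which ran from 8.02 to 8.51. POR, the cytochrome P450 reductase gene that encloses SNORA14A, had log2 fold changes of -0.10 and -0.15, neither passing.

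SNORA20, which also guides modification of small-subunit ribosomal RNA, had levels of 7.50, 6.08 and 7.12 untreated, 8.28, 8.11 and 7.98 with JK exosomes and 8.06, 7.89 and 8.04 with JINB8 exosomes. The treated and untreated values did not overlap. It was higher by 1.22 ± 0.27 with JK exosomes (limma adjusted p = 0.00307) and by 1.10 ± 0.27 with JINB8 exosomes (limma adjusted p = 0.00563). TCP1, the chaperonin subunit gene around it, differed by 0.16 and 0.17 and did not pass.

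SNORA38 lies in PRRC2A. Its levels were 5.68, 5.75 and 5.92 untreated, 6.79, 6.76 and 6.77 with JK exosomes and 6.86, 6.81 and 6.82 with JINB8 exosomes. The treated arrays lay close together and above all untreated arrays. The log2 fold changes were 0.99 ± 0.08 (limma adjusted p = 3.21e-06) and 1.05 ± 0.08 (limma adjusted p = 1.89e-06). PRRC2A was not called with JK exosomes (0.20) and was higher with JINB8 exosomes (0.66).

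SNORA75 lies in NCL, the gene of the nucleolar protein nucleolin. It gave 5.94, 5.20 and 5.86 untreated, 6.59, 6.65 and 6.68 with JK exosomes and 6.67, 6.62 and 6.69 with JINB8 exosomes, with no overlap. The fold changes were 0.98 ± 0.16 and 1.00 ± 0.16 (limma adjusted p = 0.000382 and 0.000312). NCL itself rose by less, 0.42 and 0.37, and passed in both.

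SNORA65, a guide for large-subunit ribosomal RNA within the ribosomal protein gene RPL12, gave 5.54, 5.62 and 5.47 untreated, 6.30, 6.14 and 6.60 with JK exosomes and 6.25, 6.28 and 6.22 with JINB8 exosomes. The groups were apart, by 0.81 ± 0.11 and 0.71 ± 0.11 (limma adjusted p = 0.000112 and 0.000267). RPL12 differed by 0.21 and -0.19 and passed in neither. SNORA16B (0.93 and 0.72), SNORA30 (0.86 and 0.89) and SNORA46 (0.74 and 0.92) also rose with JK and JINB8 exosomes, without overlap with untreated values. On deposited values SNORA20, SNORA38, SNORA75, SNORA65, SNORA16B, SNORA30 and SNORA46 all had negative differences, as had the median gene.

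Among the small Cajal body RNAs 8 of 16 were higher and 2 lower with JK exosomes, and 7 were higher and 2 lower with JINB8 exosomes. Of all genes 26.2% and 26% were called higher and 22.4% and 23.3% lower. SCARNA17, a C/D box guide for small nuclear RNA, had levels of 7.70, 6.81 and 7.81 untreated, 8.69, 8.94 and 8.41 with JK exosomes and 8.15, 8.01 and 8.04 with JINB8 exosomes. The 3 groups did not overlap and untreated replicate 2 was the lowest array. Its log2 fold changes were 1.24 ± 0.22 and 0.63 ± 0.22 (limma adjusted p = 0.000813 and 0.0349). SCARNA1, SCARNA5, SCARNA8 and SCARNA9 were also called higher in both comparisons, SCARNA1 by 0.73 and 0.64. SCARNA9, a guide for the U2 small nuclear RNA, rose by 0.66 with JK exosomes, where values overlapped, and by 0.82 with JINB8 exosomes, where they did not.

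SNORA70F, of the family that guides small-subunit ribosomal RNA modification, gave 4.01, 4.07 and 3.73 untreated, 3.38, 3.54 and 3.42 with JK exosomes and 3.53, 3.45 and 3.44 with JINB8 exosomes. It lay below the untreated values on every treated array, by -0.49 ± 0.10 and -0.46 ± 0.10 (limma adjusted p = 0.00182 and 0.00242). COBLL1, the gene around it, fell by more, -1.49 and -1.22. SNORA58 (-0.33 and -0.42) and SCARNA12 (-0.25 and -0.51) also passed in both and SCARNA7 (-0.40) with JK exosomes. With JINB8 exosomes SCARNA7 differed by -0.20, not passing, and the direct test between the exosomes gave 0.16 (limma adjusted p = 0.782).

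Several of these calls rest on single arrays or on the scale. With medians aligned, SNORA58 no longer passed in either comparison, SNORA70F and SCARNA12 no longer passed with JINB8 exosomes, SCARNA7 no longer passed with JK exosomes (adjusted p = 0.112), and SCARNA12 turned to 0.11 with JK exosomes. Leaving out JK-treated replicate 3 took the adjusted p of SNORA58 to 0.0506 and left 1 lower call of 4. Leaving out untreated replicate 2 or JK-treated replicate 1 left 2. SCARNA12 lost its JK call without untreated replicate 1 or 2, JK-treated replicate 1 or 3, or JINB8-treated replicate 2.

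With JINB8 exosomes the lower RNAs also included SNORA24, SNORA41, SNORA62, SCARNA23 and SNORA70B. SNORA24, another guide for small-subunit ribosomal RNA, gave 7.94, 7.39 and 7.52 untreated and 6.92, 7.06 and 6.53 with JINB8 exosomes, against 7.77, 7.40 and 7.41 with JK exosomes. The JINB8 values lay below both other groups, and the change from untreated was -0.78 ± 0.17 (limma adjusted p = 0.00276). SNORA41 was lower by -0.66 ± 0.24 (limma adjusted p = 0.0415), but by -0.33 without untreated replicate 1 (adjusted p = 0.144), and it also lost its call without JK-treated replicate 2 or any of the 3 JINB8-treated arrays. SNORA62 was lower by -0.76 ± 0.27 (limma adjusted p = 0.0331), with 5.92, 5.26 and 4.53 against 6.27, 5.90 and 5.82 untreated, where the groups overlapped. SCARNA23 (-0.26, but 0.58 with medians aligned) and SNORA70B (-0.23) lost their calls when most single arrays were left out. The count of 8 lower fell to 5 without untreated replicate 1 or JINB8-treated replicate 2 and to 4 without JINB8-treated replicate 3.

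These RNAs varied more between untreated arrays than other genes did. On the quantile scale the SD over the untreated arrays exceeded 0.5 for 9 of 77, or 11.7%, beside 0.608% of all genes. With JK and with JINB8 exosomes it did so for 1 of 77 each. The 9 were SNORA14A (1.41), SNORA21 (0.88), SNORA20 (0.73), SCARNA9L (0.63), SCARNA9 (0.59), SNORA10 (0.57), SCARNA17 (0.55), SNORA41 (0.55) and SNORA14B (0.53). For these 9 the SEs and p-values against untreated HUVEC, which pool the spread of the 3 HUVEC groups, understate the scatter of the untreated arrays. Untreated replicate 2 was the array farthest from the others in 5 of the 9, the highest in 3 and the lowest in 2. Over all 77 RNAs replicate 2 was the farthest in 22, replicate 1 in 23 and replicate 3 in 32. Among all genes the shares were 30.6%, 36.3% and 33.1% for replicates 2, 1 and 3. Over the other 68 RNAs, 30 were higher and 4 lower with JK exosomes and 24 higher and 7 lower with JINB8 exosomes. The shares of all genes were 26.2% and 22.4% with JK and 26% and 23.3% with JINB8 exosomes.

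**Figure D2:**
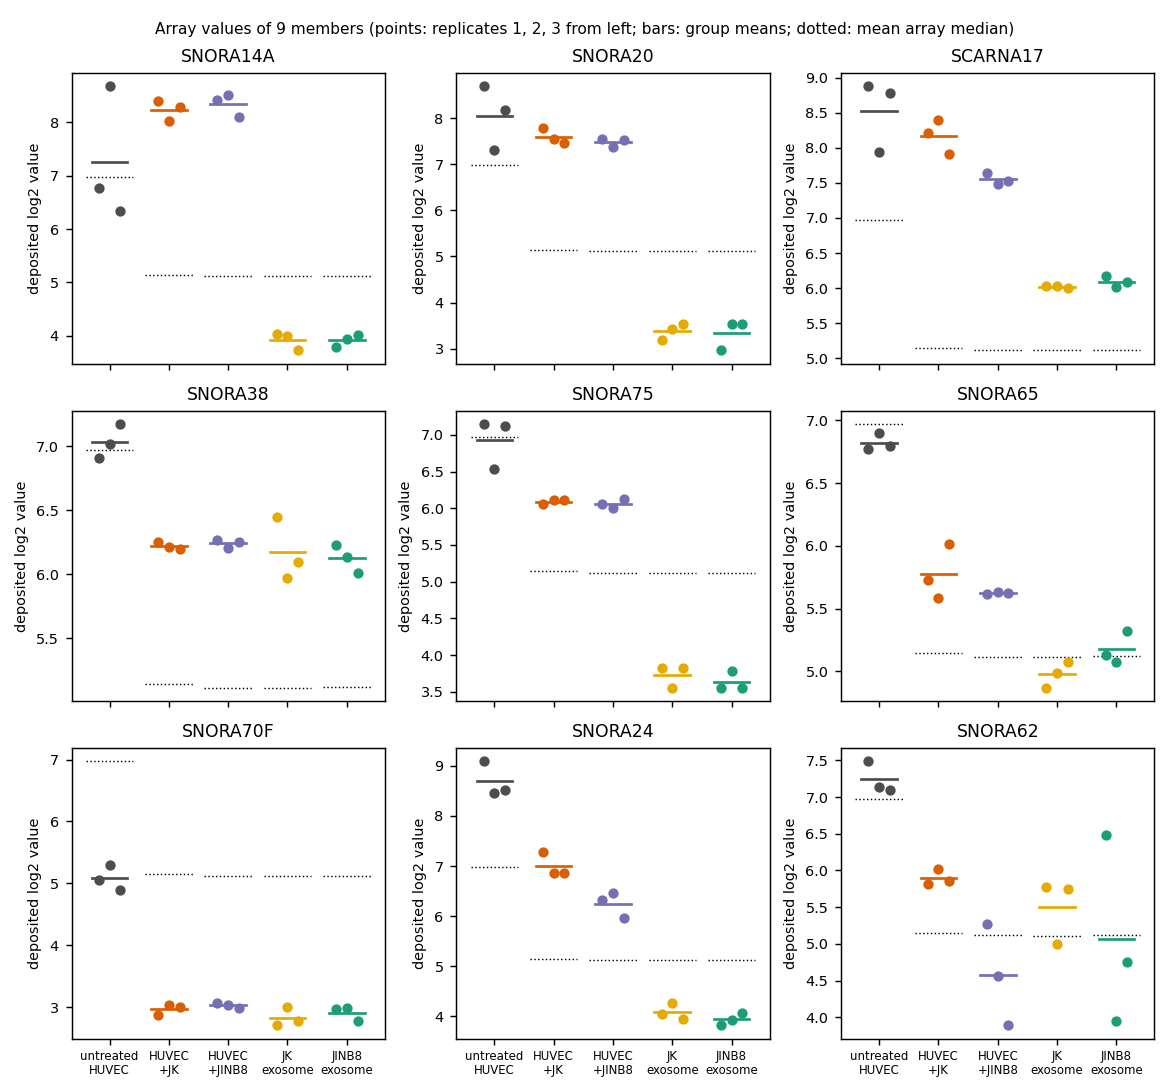
Deposited log2 values (y axis) of 9 RNAs on all 15 arrays, with points for replicates 1 to 3, bars for group means and dotted lines for the mean array median of each group. Untreated values sit on a raised array level (6.97 against 5.11 to 5.14), SNORA14A untreated replicate 2 stands at 8.67, and SNORA62 spreads widely with JINB8 exosomes and in JINB8 exosome RNA.

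The proteins that work with these RNAs did not share a direction. Of the 4 H/ACA core proteins DKC1, the pseudouridine synthase, was higher on the quantile scale (0.29 with JK and 0.34 with JINB8 exosomes), NOP10 (-0.34 and -0.66) and NHP2 (-0.38 and -0.73) were lower, and GAR1 (0.14 and 0.18) passed in neither. Of the assembly factors SHQ1, which holds newly made dyskerin, was higher by 0.65 in both. NAF1, which hands it to nascent RNA, was lower with JK exosomes (-0.35) and not called with JINB8 exosomes (-0.20). RUVBL2, an ATPase of the assembly complex, was lower with JINB8 exosomes (-0.32) and not called with JK exosomes (-0.23). All of these were negative on deposited values.

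Among 15 measured Cajal body factors 6 were higher and 1 lower with each exosome. Of all genes 26.2% were called higher and 22.4% lower with JK exosomes, and 26% and 23.3% with JINB8 exosomes. COIL, the gene of coilin, differed by 0.28 and 0.27, and WRAP53, which brings small Cajal body RNAs to the body, by -0.17 and -0.16, not passing. Of 11 factors that trim the 3′ ends of small RNAs 6 were higher and 1 lower with JK exosomes, and 7 were higher and 2 lower with JINB8 exosomes. MTREX, the helicase of the nuclear RNA exosome, was higher by 0.76 and 0.63. Of 12 pseudouridine synthases that need no guide 3 were higher and 3 lower in each comparison, near the shares of all genes. Telomerase RNA, TERC, and TERT passed in neither.

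The RNAs and the genes around them were then set side by side. Measured enclosing genes, 55 in all, were found for 64 RNAs. SNORA13 lay in 2 of them and was left out of the pairs, which leaves 63 RNAs and 53 genes. Of the 77 RNAs 11 lay in several genes, measured or not. Where a single one of those was measured it formed the pair, so a pair may not hold the host gene. With JK exosomes 28 of these RNAs were higher, of which 13 lay in a gene that was also higher and 3 in one that was lower. With JINB8 exosomes 23 were higher, 13 in a higher gene and 2 in a lower one. Over the 63 pairs Pearson's r was 0.31 and 0.35 and Spearman's rho 0.32 and 0.41, as a description across RNAs that share arrays and sometimes a gene. The enclosing genes had medians of 0.20 and 0.10, with 23 and 21 of 55 higher and 13 and 15 lower. Of all genes 26.2% and 26% were called higher and 22.4% and 23.3% lower. With array medians aligned their medians were 0.42 and 0.40, above the 0.33 and 0.31 of the 77 RNAs, whereas on the quantile scale they were below the 0.31 and 0.21 of the RNAs. Enclosing genes were taken without regard to strand, so some may lie opposite the RNA.

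**Figure D3:**
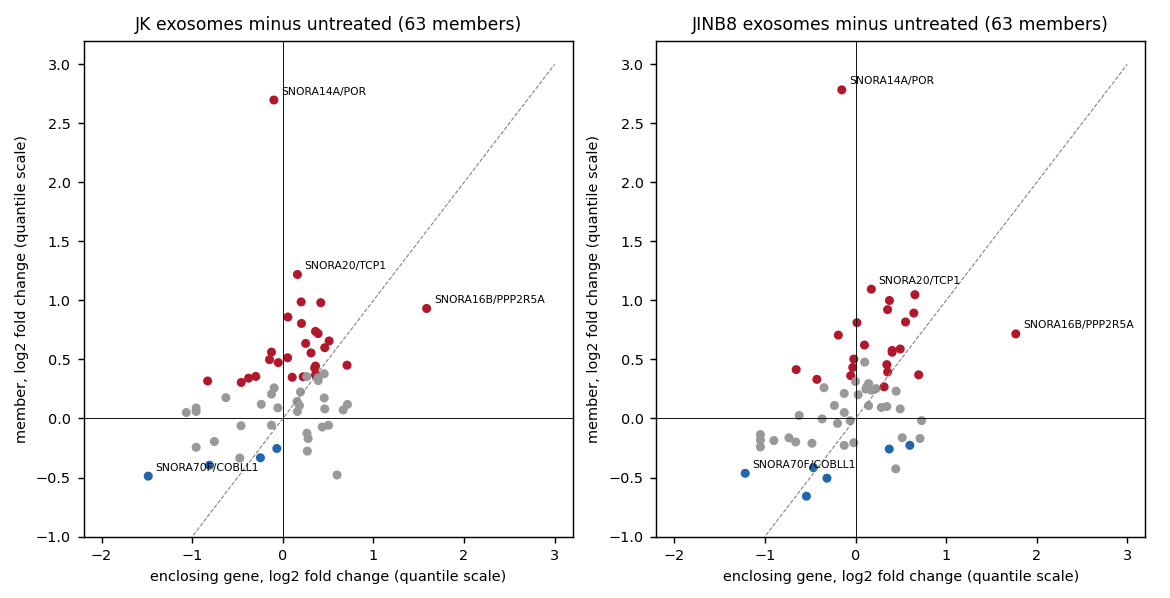
Log2 fold change against untreated HUVEC on the quantile scale of 63 RNAs (y axis) and of the gene that encloses each (x axis), for JK exosomes (left) and JINB8 exosomes (right). Red and blue mark RNAs called higher or lower and the dashed line equal change. SNORA14A lies at 2.70 and 2.78 while its enclosing gene POR is near 0, and SNORA16B lies below the line because PPP2R5A rose more (1.59 and 1.77).

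The direct test of the 2 exosomes in HUVEC used deposited values, since the treated groups had like array medians. No RNA passed in either direction (limma, adjusted p under 0.05), nor did any gene, so that 0% were called. At an unadjusted p under 0.05 there were 12 of 77 RNAs and 1678 of 18417 genes. The median difference, JINB8 minus JK, was -0.10, beside -0.02 for all genes, and 55 of the 77 were below 0. The JINB8-treated values lay wholly below the JK-treated values for 16 RNAs and above for 3, where 9.78% and 7.68% of all genes did so.

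SNORA62, a guide for large-subunit ribosomal RNA in the ribosomal protein gene RPSA, gave 5.82, 6.03 and 5.86 with JK exosomes and 5.27, 4.56 and 3.89 with JINB8 exosomes. The groups did not overlap, but the JINB8 arrays were far apart. The difference was -1.33 ± 0.25 (95% interval -1.87 to -0.79) with an unadjusted p of 0.00014 and a limma adjusted p of 0.112. Without JINB8-treated replicate 1 it was -1.68 and passed (adjusted p = 0.0129). In JINB8 exosome RNA it gave 6.48, 3.95 and 4.75, an SD of 1.30 against 0.69 in JINB8-treated HUVEC. RPSA itself had no probeset with 1 symbol.

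SNORA24 was next in size, with deposited values of 7.28, 6.86 and 6.87 against 6.33, 6.47 and 5.95, a difference of -0.75 ± 0.18 (limma adjusted p = 0.203). The values did not overlap. SCARNA17 followed with 8.21, 8.39 and 7.91 against 7.65, 7.48 and 7.53, a difference of -0.62 ± 0.20 (limma adjusted p = 0.383). SNORA37 differed by -0.41 and SNORA22, in the other direction, by 0.43, neither passing (limma adjusted p = 0.311 and 0.453).

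SNORA24 and SCARNA17 lie in SNHG8 and SNHG22, small nucleolar RNA host genes, whose spliced RNAs are known mostly as carriers of guides. Across 6 such genes, 8 RNAs had a JINB8-treated mean below the JK-treated mean (median -0.16), as did 55 of the 77 RNAs and 10273 of 18417 genes. This class was set up after values were seen and is given without a test. SNHG17 carries 3 of them, SNORA71A, SNORA71C and SNORA71D, with differences of -0.14, -0.33 and -0.17, while the SNHG17 probeset differed by -0.03. The start regions of SNHG8, SNHG22 and SNHG17, chosen after values were seen, are shown because the first 2 carry SNORA24 and SCARNA17 and the last carries 3 of the RNAs, from 60 bases before the annotated start to 40 from it (RefSeq, GRCh38.p14, 5′ to 3′ on the gene's strand, capitals from the annotated start). They lie at chr4:118278702-118278801 on the plus strand, chr18:49813963-49814062 on the plus strand and chr20:38435289-38435388 on the minus strand.
SNHG8: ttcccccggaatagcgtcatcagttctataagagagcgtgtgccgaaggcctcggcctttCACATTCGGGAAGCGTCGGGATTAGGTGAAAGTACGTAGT
SNHG22: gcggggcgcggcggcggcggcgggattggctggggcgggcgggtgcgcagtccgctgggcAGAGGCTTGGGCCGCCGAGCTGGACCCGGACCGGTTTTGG
SNHG17: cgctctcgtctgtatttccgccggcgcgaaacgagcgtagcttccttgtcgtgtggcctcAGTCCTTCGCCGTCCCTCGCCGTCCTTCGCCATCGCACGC
On either strand of the 300 bases around each start, SNHG8 held CTTTC, SNHG22 held CCAAT and SNHG17 held neither, and none held TATAAA. Among 35116 start windows of that length 54.7% held CTTTC, 34.6% CCAAT and 11.5% TATAAA.

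The RNA of the 2 exosomes was compared next. None of the 77 RNAs passed, where 0.668% of all genes were higher in JINB8 exosome RNA and 0.0109% lower, 0.679% in all. The arrays did not overlap for 1 RNAs higher and 2 lower in JINB8, beside 7.35% and 5.52% of all genes. The median difference was -0.02, beside 0.00 for all genes, and 2 RNAs had an unadjusted p under 0.05. SNORA65 was at 4.87, 4.99 and 5.08 in JK and 5.13, 5.08 and 5.32 in JINB8 exosome RNA, a difference of 0.20 ± 0.09 with touching values (limma adjusted p = 0.6). SNORA50A was at 4.47, 4.14 and 4.26 against 4.02, 4.01 and 4.13, without overlap, a difference of -0.23 ± 0.09 (limma adjusted p = 0.485).

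**Figure D4:**
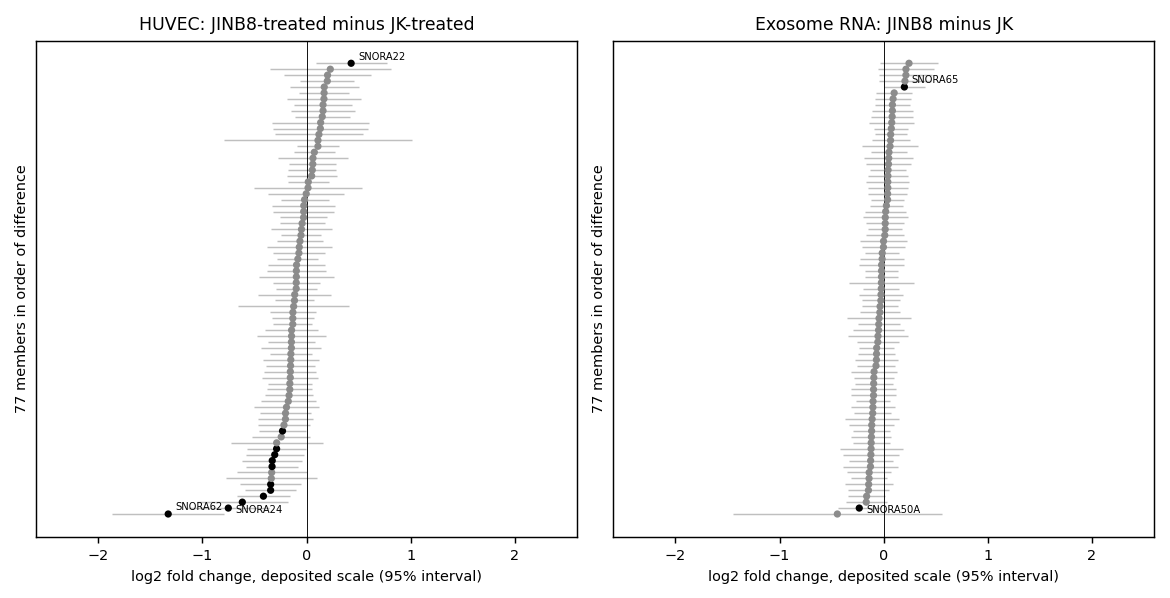
Differences JINB8 minus JK (x axis, log2, points with 95% intervals) of the 77 RNAs in order of size, in treated HUVEC (left) and in exosome RNA (right). Black points, some of them named, have an unadjusted p under 0.05, 12 at left and 2 at right, and none passed after adjustment. SNORA62 lies at -1.33 at left and has the widest interval at right (-1.45 to 0.56).

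Exosome RNA was finally set against HUVEC that had received the same exosomes, a comparison in which the vesicle, the T cell of origin and the array distribution differ together and cannot be told apart. Of the 77 RNAs 16 were higher and 44 lower in JK exosome RNA than in JK-treated HUVEC, and 20 higher and 45 lower for JINB8. Of all genes 43.6% and 44.2% were called higher and 49.2% and 48.3% lower, 92.8% and 92.5% in all. The arrays did not overlap for 17 RNAs higher and 44 lower for JK, beside 43.4% and 49% of all genes, and for 21 and 44 for JINB8, beside 44.1% and 48.5%. The medians were -0.46 and -0.35, beside -0.15 and -0.11 for all genes. With medians aligned the counts became 29 higher and 33 lower for JK and 31 and 31 for JINB8. On the 3 scales alike 15 were higher and 30 lower for JK, and 18 and 27 for JINB8. In the 2 comparisons 16 RNAs were higher in both, 43 lower in both and 0 called in opposite directions. The comparisons share no array but were fitted in the same model. Of all genes 0% passed between the treated HUVEC groups and 0.679% between the exosome RNAs. The shared calls were not counted for all genes, so whether this likeness is particular to these RNAs was not tested.

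SNORA15, a guide for small-subunit ribosomal RNA, gave 4.20, 4.18 and 4.33 in JK-treated HUVEC and 6.40, 6.08 and 6.33 in JK exosome RNA. For JINB8 the values were 4.04, 4.21 and 3.99 in cells and 6.28, 6.36 and 6.12 in exosome RNA. The exosome values were all above the cell values, by 2.04 ± 0.10 and 2.17 ± 0.10 (limma adjusted p = 4.01e-12 and 1.72e-12). CCT6A, the chaperonin subunit gene that encloses it, went the other way, by -4.34 and -4.04. The 3 probesets of SNORA15 gave nearly the same values. Those not used for it had identical means in every group, so they do not count as separate measurements.

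SNORA70G gave 4.71, 5.03 and 5.16 in JK-treated HUVEC against 6.81, 6.73 and 6.90 in JK exosome RNA, and 4.66, 4.76 and 4.87 against 6.61, 6.74 and 6.86 for JINB8. It was higher in exosome RNA by 1.85 ± 0.11 and 1.98 ± 0.11 (limma adjusted p = 5.63e-11 and 2.32e-11), while its enclosing gene RAP1B was lower by -5.30 in both. SCARNA11 (1.48 and 1.40), SNORA80A (1.32 and 1.38), SNORA35 (1.08 and 1.17) and SNORA5B (1.07 and 1.21) followed. In both comparisons 3 of 3 SNORA80 genes were higher, where 43.6% and 44.2% of all genes were. SNORA35 lies in HTR2C, the serotonin receptor gene. These RNAs were higher on the quantile and median-aligned scales too.

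The falls were larger. SNORA22 gave 7.96, 7.91 and 8.04 in JK-treated HUVEC and 2.73, 3.19 and 2.94 in JK exosome RNA. For JINB8 it gave 8.19, 8.69 and 8.33 in cells and 3.10, 3.46 and 3.04 in exosome RNA. No value overlapped, and the differences were -5.01 ± 0.14 and -5.20 ± 0.14 (limma adjusted p = 2.56e-15 and 1.66e-15).

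SNORA14A, which had the largest quantile-scale rise in treated HUVEC among the 77, gave 4.04, 4.00 and 3.73 in JK and 3.80, 3.95 and 4.01 in JINB8 exosome RNA. These were below every HUVEC array, and the differences from treated HUVEC were -4.31 ± 0.12 and -4.42 ± 0.12 (limma adjusted p = 3.14e-15 and 2.31e-15). SNORA20, also among the higher RNAs of treated HUVEC on the quantile scale, differed by -4.22 and -4.14, and SNORA75 by -2.35 and -2.43.

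SNORA23, in the importin gene IPO7, gave 11.11, 10.92 and 11.15 in JK-treated HUVEC against 6.43, 6.72 and 6.64 in JK exosome RNA, and 11.16, 11.27 and 11.26 against 6.10, 6.71 and 6.61 for JINB8. The differences were -4.47 ± 0.13 and -4.76 ± 0.13 (limma adjusted p = 5.2e-15 and 2.39e-15). Their size depended on the scale, at -1.68 and -2.09 after quantile normalization. SNORA3A (-3.55 and -3.26) shrank to -0.71 and -0.38 and SNORA68 (-3.42 and -3.12) to -1.82 and -1.40. SNORA71D, named after its values were seen, was at -3.11 and -3.03 and turned to 0.13 and 0.06.

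Of the small Cajal body RNAs, the 8 counted as C/D box or carrying both boxes, SCARNA9L among them, were all lower in JK exosome RNA, and 7 of the 8 were lower in JINB8 exosome RNA, where 49.2% and 48.3% of all genes were lower. On another scale the sign turned for SCARNA5 in both, SCARNA6 with JK and SCARNA17 with JINB8. Of the 8 with an H/ACA box alone 1 was higher and 3 lower for JK, and 4 were higher and 3 lower for JINB8. Of all genes 43.6% and 44.2% were higher. SCARNA12 gave 9.10, 9.13 and 9.03 in JK-treated HUVEC and 5.46, 5.48 and 5.12 in JK exosome RNA, a difference of -3.73 ± 0.09 that was -3.53 ± 0.09 for JINB8 (limma adjusted p = 6.04e-16 and 1.25e-15). PHB2, the prohibitin gene around it, differed by -3.72 and -3.31. SCARNA9 differed by -3.61 and -3.67. The box classes were counted after values were seen, and the difference between them was not tested.

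**Figure D5:**
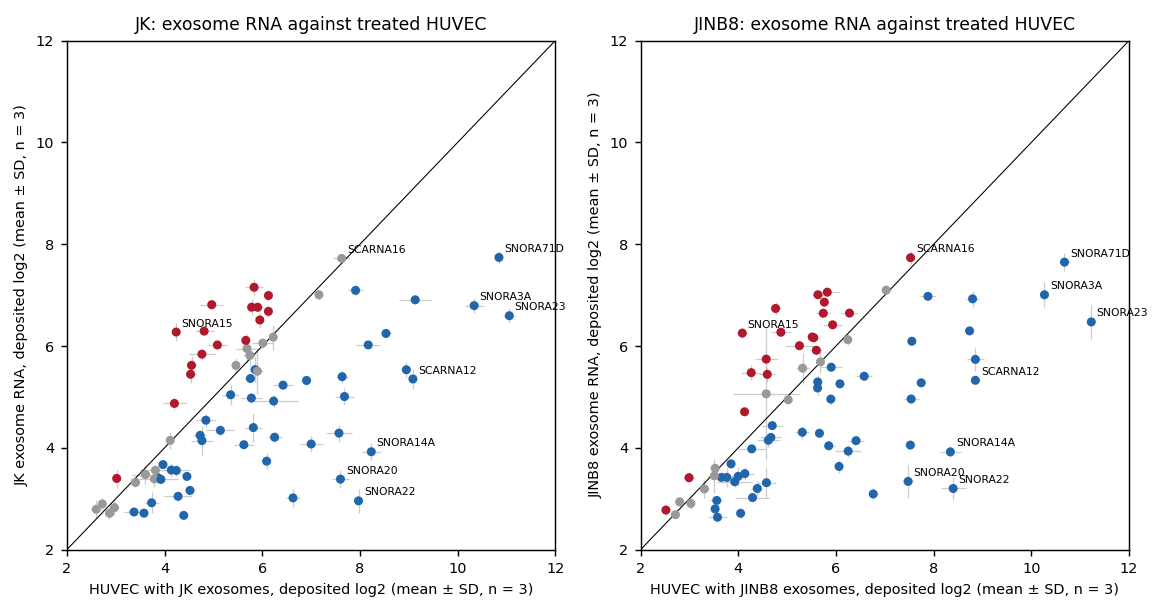
Mean deposited log2 value (± SD, n = 3) of each of the 77 RNAs in treated HUVEC (x axis) and in the exosome RNA used (y axis), for JK (left) and JINB8 (right), with the line of equal values. Red points (16 and 20) were called higher and blue points (44 and 45) lower in exosome RNA, and no exosome mean exceeds 8 while 9 HUVEC means do in each panel. Of all genes 0.478% and 0.559% exceeded 8 in JK and JINB8 exosome RNA, and 15.1% and 15.2% in HUVEC treated with them.

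Of 55 measured enclosing genes 51 were lower and 3 higher in both comparisons, with medians of -2.64 and -2.72 (-1.31 and -1.36 after quantile normalization). Of the 53 in the pairs 49 were lower in each, and 43 of these for JK and 42 for JINB8 were below 0 on all 3 scales. The sign turned on another scale for NAP1L4, POR, RPL12, RPL27A, RPS2 and SNHG17 in both and for TCP1 with JINB8. Of the 14 paired RNAs that were higher for JK, 12 lay in a gene that was lower, and for JINB8 16 of 18 did. Across the 63 pairs Pearson's r was 0.00 and -0.02. Of the machinery 3 of 4 H/ACA core proteins, 4 of 4 assembly factors and 11 of 11 factors of 3′ end trimming were lower in both. Of 15 Cajal body factors 12 were lower for JK and 10 for JINB8. Of all genes 49.2% and 48.3% were lower and 43.6% and 44.2% higher. After quantile normalization the medians were -0.82 and -0.47 for core proteins and -0.48 and -0.19 for assembly factors. They were -2.14 and -2.21 for trimming factors, beside 0.22 and 0.24 for all genes. On another scale the sign turned for SHQ1 and COIL in both and for RUVBL1 with JINB8. With JK it also turned for the Cajal body factors GEMIN2 and GEMIN4 and the trimming factor TOE1. Of the SNORD genes 18 were higher in each comparison and 77 and 75 of 115 lower, with medians of -0.85 and -0.83.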

How the data were processed

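The authors deposited 1 table of log2 values for 33297 probesets on 15 arrays, with no detection calls. Per the labels' protocols a miRNeasy kit gave total RNA with the small RNAs, and 300 ng were labelled with whole-transcript kits. Per the submitters' processing notes Expression Console was used. No version, normalization or genome build is stated in those notes. In the platform annotation 19460 probesets had 1 symbol, 1754 several and 12083 none listed. For every gene the brightest probeset (mean of the 15 arrays) was kept, leaving 18417 genes. The 77 RNAs came from 83 probesets, and 28 more probesets with several symbols were left out. Guides of near-identical sequence, such as the SNORA70, SNORA71 and SNORA80 families, may share signal. No filter on low values was used. The number of arrays limits the precision.

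Models were fitted with limma 3.58.1 in R 4.3.3 (lmFit and eBayes) over the 9 HUVEC arrays, the 6 exosome arrays, or the 12 arrays of exosome RNA and treated HUVEC. Adjustment was by Benjamini-Hochberg over all genes, with a threshold of 0.05. With 3 against 3 arrays an exact permutation test cannot go below 0.1. Named RNAs passed without overlap between groups, up to the 8 highest and 8 lowest, or, where fewer did, also the 4 highest and 4 lowest at an unadjusted p under 0.05; SCARNA genes, listed factors and enclosing genes could be named throughout. Exceptions to this rule are SNORA71A, SNORA71C, SNORA71D, SNORA21 and SNORA14B, chosen after values were seen, and SNORA62 in the JINB8 comparison with untreated HUVEC, whose groups overlap. Some RNAs that the rule named in other comparisons were also given where it did not name them. Against untreated HUVEC these include SNORA46 with JK exosomes and SNORA16B and SNORA65 with JINB8 exosomes. For exosome RNA against treated HUVEC they include SNORA75 in both comparisons and SNORA68 for JINB8. The RNAs, gene lists and tests were chosen with earlier results of these data known. Enclosing genes came from RefSeq spans without strand, although same-strand genes had been planned. The code was tested on simulated data. Alternatives were other scalings, a filter on dim genes, averaged probesets, limma's trend and robust options, the replicate number as a block, and leaving out each array. The test of a difference between the 2 exosome to HUVEC comparisons was added after the data were seen. Background correction and slide or scan date were not analysed here.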

Additional observations from a re-analysis of the deposited data

Results flagged for a closer look

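SCARNA17 was lower in exosome RNA than in treated HUVEC by -2.15 ± 0.10 for JK and by -1.46 ± 0.10 for JINB8. The test of the difference itself, added after the data were seen, gave 0.69 ± 0.15 (SE; limma adjusted p = 0.0396). No other of the 77 RNAs passed it. The share of all genes that passed was not counted, so whether the call is particular to these RNAs was not tested. In JK and JINB8 exosome RNA its values were alike, 6.03, 6.03 and 6.00 against 6.18, 6.01 and 6.09, and the treated HUVEC values differed, 8.21, 8.39 and 7.91 against 7.65, 7.48 and 7.53. It no longer passed on the quantile scale (0.54, adjusted p = 0.107), with medians aligned (0.63, adjusted p = 0.0543), with the mean of its 2 probesets (0.57, adjusted p = 0.076), or in 10 of 12 fits that left out 1 array, where it ran from 0.58 to 0.82. Only without JK-treated replicate 3 or JINB8-treated replicate 1 did it still pass. The cause was not tested.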

How the results depend on the processing

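Counts against untreated HUVEC depended on the scale: deposited values gave 1 higher and 74 lower with JK exosomes, and 1 and 76 with JINB8 exosomes. Leaving out the 40% dimmest genes kept 45 of the RNAs, of which 23 were higher with JK exosomes and 17 higher and 4 lower with JINB8 exosomes. A variance trend with robust fitting gave 5 lower with JINB8 exosomes. Against treated HUVEC, JK exosome RNA had 25 higher after quantile normalization and 29 with medians aligned, JINB8 exosome RNA had 31 with medians aligned, and without the dimmest genes 23 of 43 were lower in each. Leaving out 1 array gave 28 to 37 higher and 1 to 6 lower with JK exosomes, 24 to 29 and 4 to 10 with JINB8 exosomes, and 0 to 1 lower between them. It gave 16 to 17 higher and 41 to 46 lower for JK exosome RNA and 18 to 20 and 40 to 45 for JINB8.

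On deposited values the JK differences of SCARNA17 (-0.36), SNORA20 (-0.45), SNORA38 (-0.81), SNORA75 (-0.84), SNORA16B (-0.62), SNORA30 (-0.91) and SNORA65 (-1.05) turned negative. So did the JINB8 differences of SNORA20 (-0.57), SNORA38 (-0.79), SNORA75 (-0.87), SNORA46 (-0.93), SNORA30 (-0.91), SCARNA9 (-0.95) and SNORA10 (-0.68). With medians aligned SCARNA12 turned to 0.11 with JK exosomes and SCARNA23 to 0.58 with JINB8 exosomes. The cause was not tested.

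Pairing of samples by replicate number was not evident, and the labels state none. Deviations of same-numbered arrays correlated at 0.24, -0.08 and 0.00 for JK-treated and untreated HUVEC. The largest correlations with other numbers were -0.12, 0.14 and 0.14, so replicate 1 alone was closest to its own number. Across all comparisons the same-number correlations ran from -0.45 to 0.24. With the replicate block 36 were higher and 4 lower with JK exosomes and 29 and 7 with JINB8 exosomes, 0 passed in either JINB8 to JK comparison, and 16 and 44 and 19 and 43 passed for JK and JINB8 exosome RNA. SNORA70B (adjusted p = 0.0641) and the SCARNA17 difference in flagged results (adjusted p = 0.0692) lost their calls. Signal over background could not be read from these values, so dim RNAs may have only a bound.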
